A study of Mus musculus with 8 samples.

Results

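Expression of sterol and fatty acid synthesis genes was measured in CD8 T cells of mouse lymph node that were gated as Ly6C+CXCR3+. The members were a list of 41 genes, taken by symbol from a table of 13245 genes, and 39 of them were analysed: 18 of sterol synthesis, 13 of sterol transport and regulation, and 8 of fatty acid synthesis. Scd1 and Fads2, the other two listed genes, were not analysed here. RNA-seq libraries came from CD103Tg mice (4 libraries), which per the labels overexpress CD103, and from C57BL/6 mice (B6, 4 libraries). Itgae encodes CD103, the alpha E chain of an integrin that binds E-cadherin. The labels give no age, treatment, transgene promoter or number of mice per library, and do not say whether replicates came from separate mice. The p-values therefore measure only the spread between these libraries, which may be technical.

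Cells make cholesterol from acetyl-CoA through the mevalonate pathway, squalene and lanosterol. When sterols are scarce, the membrane-bound factors encoded by Srebf1 and Srebf2 are carried by Scap to the Golgi and cleaved, and the released fragments switch on genes of sterol and fatty acid synthesis. The Insig proteins hold Scap back when sterols are plentiful. Excess sterol activates liver X receptors, among them the product of Nr1h2, which raise the exporters Abca1 and Abcg1. Activated T cells are known to draw on both sterol and fatty acid synthesis to build membrane as they divide.

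The sequences below stand before the transcription start of 4 members, where factors of these pathways are known to bind. They hold letters of elements that such factors are known to bind, but so do other members named below that are not shown. All 4 genes shown passed the test described below, so they do not stand for the members at large. A link between the letters and the changes was not tested. They are from RefSeq, build GRCm38.p6, and end before the first transcribed base in RefSeq and in GENCODE M21. Capitals mark TCACNCCA or CACNCCAC, forms of the sterol response element, CCAAT, the letters of the CCAAT box, or the DR4 element, a direct repeat bound by liver X receptors, each on either strand.
Hmgcs1 (chr13:119690101-119690350, plus strand): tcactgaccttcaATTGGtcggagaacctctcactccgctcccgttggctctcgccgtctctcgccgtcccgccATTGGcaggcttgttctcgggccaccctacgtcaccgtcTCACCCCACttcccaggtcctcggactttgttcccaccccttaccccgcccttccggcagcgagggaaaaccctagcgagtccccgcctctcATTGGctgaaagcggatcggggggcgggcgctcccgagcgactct
Srebf2 (chr15:82147019-82147180, plus strand): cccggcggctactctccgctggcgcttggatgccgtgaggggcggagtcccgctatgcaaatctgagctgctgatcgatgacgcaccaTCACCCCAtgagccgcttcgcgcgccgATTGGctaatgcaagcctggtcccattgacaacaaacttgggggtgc
Abca1 (chr4:53159896-53160145, minus strand): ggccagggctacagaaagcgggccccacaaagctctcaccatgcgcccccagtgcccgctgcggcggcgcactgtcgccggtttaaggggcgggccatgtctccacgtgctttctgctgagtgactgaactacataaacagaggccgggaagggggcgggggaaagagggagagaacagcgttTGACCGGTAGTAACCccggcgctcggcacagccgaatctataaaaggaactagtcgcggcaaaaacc
Fasn (chr11:120824548-120824797, minus strand): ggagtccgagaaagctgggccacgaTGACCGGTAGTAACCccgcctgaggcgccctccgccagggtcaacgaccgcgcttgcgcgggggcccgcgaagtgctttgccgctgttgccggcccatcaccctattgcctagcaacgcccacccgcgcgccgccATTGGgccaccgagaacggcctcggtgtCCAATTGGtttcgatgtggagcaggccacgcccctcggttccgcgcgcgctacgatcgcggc

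In Hmgcs1, TCACNCCA and CACNCCAC overlapped in 1 stretch, 137 bases before the RefSeq start at its upstream end. Srebf2 held TCACNCCA 162 bases and a CCAAT box 135 bases before its RefSeq start. That start, at 82147269, lies downstream of the end of the printed stretch, at 82147180, so the letters stand closer to that end. Abca1 and Fasn carried the same 15 bases, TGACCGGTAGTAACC, 67 and 225 bases before their starts. RefSeq promoter windows were found for 32 of the 41 listed genes, and the first 250 bases of each window were searched. TCACNCCA stood in 3 of the 32 genes (Hmgcs1, Msmo1 and Srebf2) and in 3.67% of all 32851 windows. CACNCCAC stood in 3 (Hmgcs1, Acat2 and Insig1) and in 5.29% of windows. The DR4 element stood in 3 (Srebf1, Abca1 and Fasn) and in 0.177% of windows. CCAAT stood in 24 of the 32 and in 33.8% of windows. Some genes had several windows, and the letters were chosen with known sites of these genes in mind, so these shares are descriptions only.

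The libraries held 50187279 to 56371476 estimated reads over all 13245 genes, and 1 read was worth 0.0171 to 0.0203 CPM. CPM is used here for the deposited values, which are scaled to library size with TMM factors. Itgae was at 4460 ± 861 CPM in CD103Tg and 76.1 ± 65.5 CPM in B6 (mean ± SD, n = 4 each), a log2 fold change of 6.14 ± 0.39 (SE, limma adjusted p = 1.6e-06). Within B6, replicate 4 stood at 174 CPM, against 37.5 to 51.4 CPM in replicates 1 to 3. Cd247, which encodes the CD3 zeta chain, was at 8710 ± 1000 CPM in CD103Tg and 345 ± 89.2 CPM in B6, so effects of CD103 and of Cd247 cannot be told apart. Among defining markers of the sorted cells, Cd8a, Cd8b1, Cd3e and Cd3d were at 589 CPM or more in every library. Cd8a was lower in CD103Tg (1010 ± 43.5 CPM, against 1190 ± 31.9 CPM in B6). Cxcr3, a gene of the gate, was at 415 to 489 CPM in CD103Tg and 506 to 542 CPM in B6. These groups did not overlap, but Cxcr3 did not pass (limma adjusted p = 0.0529). Ly6c2, which encodes Ly6C, was at 2760 to 3310 CPM in CD103Tg and 2500 to 3120 CPM in B6 and did not pass. Xist, expressed from the inactive X chromosome, was at 21.7, 0.0231, 36.4 and 45.2 CPM in CD103Tg, against 0.0214, 0.039, 72 and 1.71 CPM in B6. Ddx3y, on the Y chromosome, was at 48.5, 113, 29.4 and 20.8 CPM in CD103Tg, against 117, 139, 0 and 114 CPM in B6. CD103Tg replicates 1, 3 and 4 thus held both transcripts at over 20 CPM, B6 replicate 3 held Xist without Ddx3y, and the labels do not say whether mice were pooled. Fewer cells of a type and less RNA per cell cannot be told apart in such bulk libraries.

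Of the 39 members, 20 passed the test, 10 higher and 10 lower in CD103Tg, and no member changed 2-fold on the log2(CPM + 1) scale. The test was limma on log2(CPM + 1) over the 11503 genes that averaged 1 CPM or more, with Benjamini-Hochberg adjustment and a threshold of 0.05, and all 39 members met that minimum. The share of members called was 51.3%, against 31.2% of all tested genes, of which 17.4% were higher and 13.8% lower in CD103Tg. The median log2 fold change was -0.01 over the members and -0.01 over all tested genes. The libraries of the groups did not overlap in 20 members (51.3%), against 31% of all tested genes. By list, sterol synthesis had 2 higher and 5 lower, transport and regulation 4 and 4, and fatty acid synthesis 4 and 1. Whether the lists differ in direction was not tested. Quantile normalization and equal totals each gave 8 members higher and 11 lower in place of 10 and 10. The count called was 19 without B6 replicate 4, the B6 library with the highest Itgae, and 19 with the Y-linked level as a covariate.

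**Figure D1:**
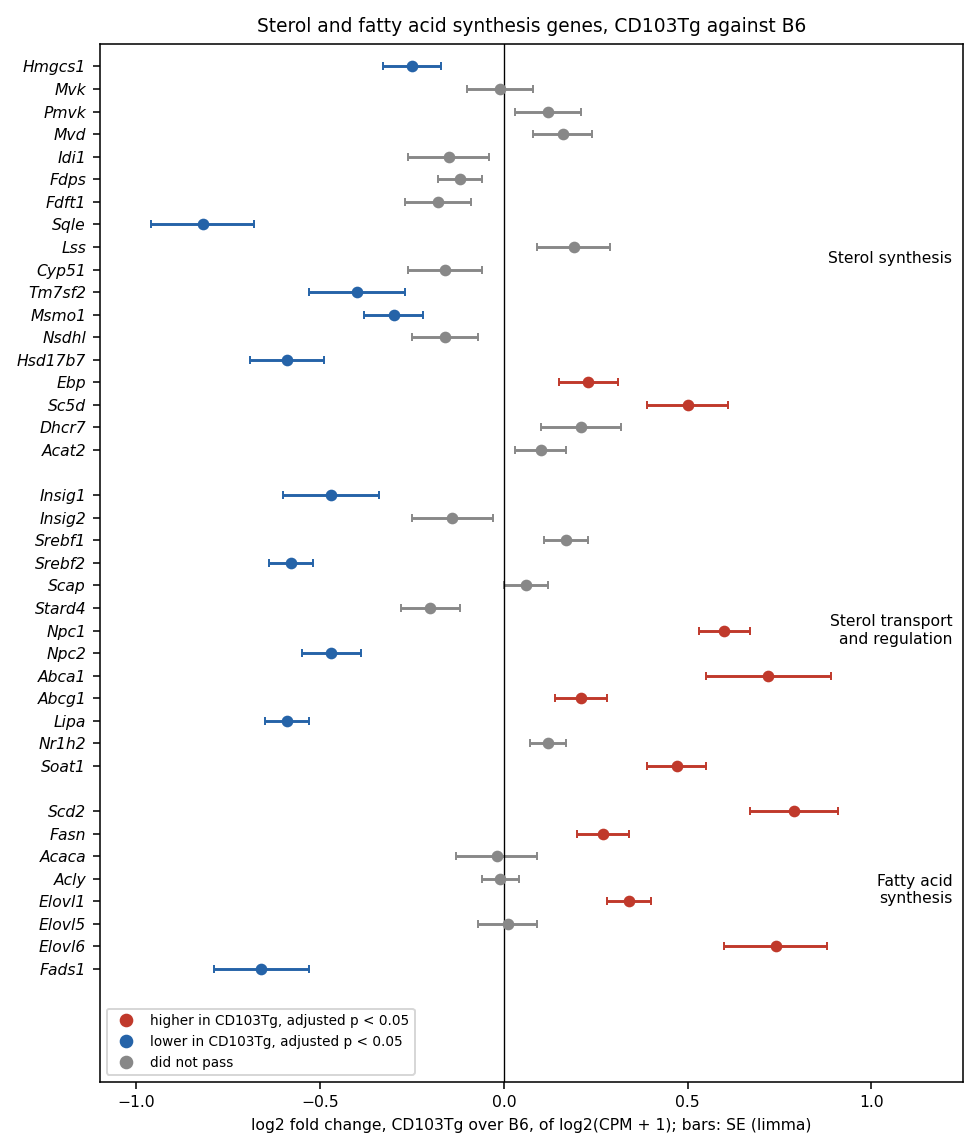
Log2 fold change of each of the 39 members, CD103Tg over B6, on the log2(CPM + 1) scale, in the order of the lists, with bars for the SE from limma; red and blue mark genes higher and lower in CD103Tg at an adjusted p under 0.05, and grey those that did not pass. Values ran from -0.82 for Sqle to 0.79 for Scd2.

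In sterol synthesis, 5 of the 7 calls were downward, and whether this differs from all genes (17.4% called higher and 13.8% lower) was not tested. Among the 18 genes, 5 fell (Hmgcs1, Sqle, Tm7sf2, Msmo1 and Hsd17b7), 2 rose (Ebp and Sc5d) and 11 did not pass, a share called of 38.9% against 31.2% of all genes. The median log2 fold change was -0.14. The count called was 4 in place of 7 without CD103Tg replicate 1, 2 or 3, or without B6 replicate 1 or 2.

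Among the early steps, Hmgcs1, the synthase that commits acetyl groups to the pathway, was at 36.2, 36.5, 35.7 and 37.8 CPM in CD103Tg, against 49.5, 45.4, 38.3 and 42.2 CPM in B6. All CD103Tg libraries lay below all B6 libraries, though B6 replicate 3 came within 1 CPM of the highest CD103Tg library. The log2 fold change was -0.25 ± 0.08 (limma adjusted p = 0.0297), and the call was lost without any one of CD103Tg replicates 1 to 3 or B6 replicates 1 and 2 (adjusted p up to 0.143 over all alternatives). The mevalonate-processing enzymes that follow did not pass. Mvk and Pmvk, the kinases, were at 5.24 ± 0.122 and 8.15 ± 0.429 CPM in CD103Tg and 5.3 ± 0.271 and 7.44 ± 0.555 CPM in B6 (SD, n = 4 each). Mvd, the decarboxylase, was at 15.1 to 16.8 CPM in CD103Tg and 13.8 to 14.7 CPM in B6, groups that did not overlap (adjusted p = 0.129). Idi1, the isomerase that makes the second isoprenoid building block, was at 23.9 ± 3.39 CPM in CD103Tg and 26.5 ± 3.5 CPM in B6. Fdps and Fdft1, which build farnesyl diphosphate and squalene, had log2 fold changes of -0.12 ± 0.06 and -0.18 ± 0.09 (SE). Acat2, the cytosolic thiolase that supplies the first intermediate, stood at 0.10 ± 0.07.

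Sqle, squalene epoxidase and a rate-limiting step of the pathway, was the member with the lowest fold change. It was at 2.01, 2.51, 2.66 and 3.39 CPM in CD103Tg, against 6.65, 4.62, 5.18 and 5.26 CPM in B6. The groups did not overlap, and the ratio of means was 0.487. Its log2 fold change on the log2(CPM + 1) scale, which understates the change of so low a gene, was -0.82 ± 0.14 (limma adjusted p = 0.00129), and it kept its call in each alternative in which it was tested. The gene is weakly covered, with 99 estimated reads in the lowest library. Lss and Cyp51, the next enzymes, which form and demethylate lanosterol, were at 28.8 ± 1.84 and 18.3 ± 2.26 CPM in CD103Tg and 25.3 ± 3.49 and 20.5 ± 1.84 CPM in B6. Neither passed, but Lss did without B6 replicate 4 (adjusted p = 0.042), within a range of 0.0314 to 0.386 over all alternatives.

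Of the enzymes that turn lanosterol into cholesterol, some fell and others rose. Hsd17b7, a ketoreductase of C4 demethylation, was at 9.23, 7.45, 7.61 and 7.29 CPM in CD103Tg, against 13.1, 12.7, 11.1 and 12.6 CPM in B6 (log2 fold change -0.59 ± 0.10, limma adjusted p = 0.001). Msmo1, the methyl oxidase of the same demethylation, was at 33.3, 35.3, 29.6 and 30.6 CPM in CD103Tg, against 44, 40.3, 35.9 and 39.6 CPM in B6 (-0.30 ± 0.08, adjusted p = 0.0145). The groups did not overlap in either gene. Nsdhl, the third enzyme of that step, was at 20.6 ± 1.58 CPM in CD103Tg and 23.2 ± 2.33 CPM in B6 (SD, n = 4 each) and did not pass. Tm7sf2, a sterol reductase, was at 1.79, 1.58, 1.86 and 2.37 CPM in CD103Tg, against 2.6, 3.29, 2.36 and 3.01 CPM in B6. CD103Tg replicate 4 and B6 replicate 3 met at the same level. Its call (-0.40 ± 0.13, adjusted p = 0.0443) was lost with the replicate number as a block, with the Y-linked level as a covariate, and without any one of CD103Tg replicates 1 to 3 or B6 replicates 1, 2 and 4 (adjusted p up to 0.249).

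Sc5d, the desaturase near the end of the pathway, went the other way, at 78, 71.6, 61 and 57.3 CPM in CD103Tg, against 56.5, 45.7, 40 and 46.6 CPM in B6. The groups were separate by less than 1 CPM, and the log2 fold change was 0.50 ± 0.11 (limma adjusted p = 0.00711). Ebp, the sterol isomerase just before it, was at 79.7, 75.1, 67 and 66.1 CPM in CD103Tg, against 58.6, 63.2, 67.4 and 55 CPM in B6. B6 replicate 3 overlapped the CD103Tg libraries, and the call (0.23 ± 0.08, adjusted p = 0.046) was lost under 11 of 22 alternatives (adjusted p up to 0.15), among them quantile normalization, equal totals, array weights and leaving out any one of CD103Tg replicates 1 to 3 or B6 replicates 1, 2 and 4. Ebp lies on the X chromosome, as does Nsdhl, and the libraries differed in Xist as given above. The part of that difference in the Ebp result was not tested beyond the Y-linked covariate, under which the call was kept. Dhcr7, the last reductase, was at 31.9, 32, 25.7 and 21.6 CPM in CD103Tg, against 24.5, 23.4, 22.5 and 24.1 CPM in B6, and did not pass (adjusted p = 0.198), though it did without CD103Tg replicate 4 (adjusted p = 0.0216, range 0.0216 to 0.548).

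**Figure D2:**
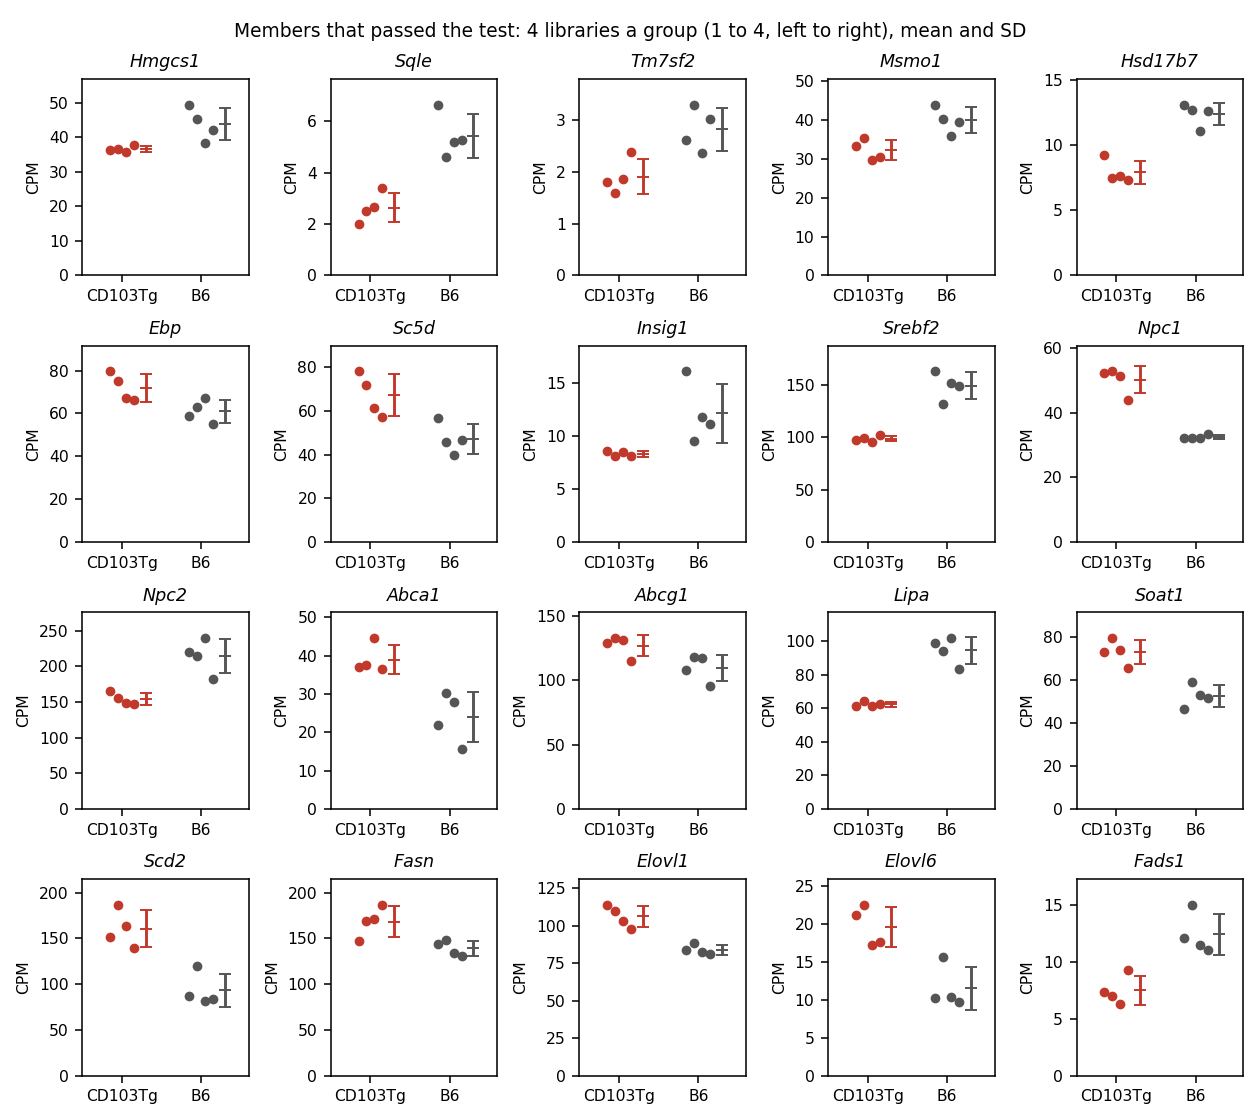
CPM of the 20 members that passed the test in each library, CD103Tg in red on the left and B6 in grey on the right of each panel, with the mean and SD (n = 4 each) beside the points; each vertical axis starts at 0. Npc1 and Lipa show groups set far apart against their spread, while Tm7sf2, Ebp, Abcg1 and Fasn show groups that overlap.

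Genes of sterol transport and regulation moved in both directions. Of 13, 4 rose (Npc1, Abca1, Abcg1 and Soat1), 4 fell (Insig1, Srebf2, Npc2 and Lipa) and 5 did not pass, a share called of 61.5% against 31.2% of all genes. The groups did not overlap in 10 of the 13 (76.9%), against 31% of all tested genes.

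Among the regulators, Srebf2 (chromosome 15, 82147181 to 82205379, GRCm38), the master activator of sterol synthesis, was at 97.5, 99.8, 95.9 and 102 CPM in CD103Tg, against 163, 132, 152 and 149 CPM in B6. The CD103Tg libraries lay close together and below all B6 libraries, with a ratio of means of 0.663 and a log2 fold change of -0.58 ± 0.06 (limma adjusted p = 4.95e-05). Insig1, which retains Scap in the endoplasmic reticulum and is itself a target of the Srebf2 product, was at 8.58, 8.1, 8.51 and 8.08 CPM in CD103Tg, against 16.1, 9.55, 11.8 and 11.1 CPM in B6 (-0.47 ± 0.13, adjusted p = 0.0195). B6 replicate 1 was the highest B6 library for both genes. Srebf1, which drives fatty acid synthesis, was at 144, 152, 158 and 142 CPM in CD103Tg, against 134, 133, 119 and 142 CPM in B6. It did not pass (0.17 ± 0.06, adjusted p = 0.0538), but did with array weights, with the Y-linked covariate, and without CD103Tg replicate 4 or B6 replicate 4 (adjusted p = 0.0184 to 0.182 over all alternatives). Within each library, the ratio of Srebf1 to Srebf2 CPM was 1.47, 1.52, 1.65 and 1.39 in CD103Tg, against 0.824, 1, 0.781 and 0.955 in B6. This ratio compares the groups, not the levels of the genes, since the lengths of the genes differ. Scap and Insig2 were at 103 ± 6.66 and 29.7 ± 5.3 CPM in CD103Tg and 98.9 ± 2.96 and 32.7 ± 2.44 CPM in B6 (SD, n = 4 each) and did not pass, although Insig2 did without CD103Tg replicate 2 (-0.26, adjusted p = 0.0448, range 0.0448 to 0.634).

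Other genes of the list act where lysosomal cholesterol is freed and handed on. Lipa (chromosome 19, 34492318 to 34527474), the lysosomal acid lipase that hydrolyses cholesteryl esters, was at 61.1, 64.2, 61.4 and 62.5 CPM in CD103Tg, against 99, 94.2, 102 and 83.5 CPM in B6 (-0.59 ± 0.06, limma adjusted p = 5.07e-05). Npc2, the soluble lysosomal carrier that receives the freed sterol, was at 165, 156, 148 and 147 CPM in CD103Tg, against 220, 214, 240 and 183 CPM in B6 (-0.47 ± 0.08, adjusted p = 0.000939). Npc1 (chromosome 18, 12189692 to 12236400), the membrane protein to which Npc2 passes it, was instead higher, at 52.4, 52.8, 51.3 and 44 CPM in CD103Tg, against 32.2, 32.1, 32.3 and 33.4 CPM in B6 (0.60 ± 0.07, adjusted p = 6.49e-05). The partners of 1 transfer step thus moved in opposite directions, and the ratio of Npc1 to Npc2 CPM was 0.298 to 0.348 in CD103Tg, against 0.134 to 0.183 in B6. Stard4, a cytosolic sterol carrier, was at 13.7 to 15.5 CPM in CD103Tg and 16.1 to 17.4 CPM in B6, groups that did not overlap (-0.20 ± 0.08, adjusted p = 0.0721), and passed as lower with quantile normalization and with equal totals.

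Genes of sterol export and storage were higher. Abca1, which loads cholesterol onto apolipoproteins, was at 37.1, 37.5, 44.6 and 36.6 CPM in CD103Tg, against 22, 30.2, 27.9 and 15.5 CPM in B6. Every CD103Tg library lay above every B6 library, with a log2 fold change of 0.72 ± 0.17 (limma adjusted p = 0.00761). Soat1, which esterifies cholesterol for storage, was at 73, 79.5, 73.8 and 65.6 CPM in CD103Tg, against 46.3, 59.2, 53 and 51.4 CPM in B6 (0.47 ± 0.08, adjusted p = 0.00122). Abcg1, an exporter to lipoproteins, was at 129, 133, 131 and 115 CPM in CD103Tg, against 108, 118, 117 and 95.4 CPM in B6. CD103Tg replicate 4 fell among the B6 libraries. Its call (0.21 ± 0.07, adjusted p = 0.0479) was lost with quantile normalization, equal totals, the Y-linked covariate or voom, and without any one of CD103Tg replicates 1 to 3 or B6 replicates 1 and 4 (adjusted p up to 0.122). Nr1h2, the liver X receptor gene of the list, was at 95.3 to 101 CPM in CD103Tg and 87.7 to 92.6 CPM in B6 and did not pass (0.12 ± 0.05, adjusted p = 0.0791), except with array weights (adjusted p = 0.0491, range 0.0491 to 0.277). Abca1 and Fasn, which share the 15 bases printed above, both rose, and Srebf1, which also holds a DR4 element, did not pass. The letters were chosen after seeing the data, and a link between them and these differences was not tested.

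Macrophages express Abca1, Abcg1, Lipa, Npc2 and Soat1 strongly, and markers of myeloid cells were present at low levels. Of 10 such markers, 6 had values, and their summed level was 14.5 to 95.3 CPM in CD103Tg and 4.65 to 67.1 CPM in B6. These ranges overlapped. The sums were 79.01, 95.27, 30.13 and 14.47 CPM in CD103Tg replicates 1 to 4, against 14.2, 67.08, 13.66 and 4.65 CPM in B6 replicates 1 to 4. Between libraries of the same number the sum was higher in CD103Tg, but the numbers were not taken to pair the libraries. Lyz2 made up most of it, at 63.9, 78.3, 21.7 and 9.42 CPM in CD103Tg, against 10.7, 55, 8.74 and 2.42 CPM in B6. Of the 4 markers tested, Cd68 rose (2.37 to 5.45 CPM in CD103Tg and 0.871 to 1.87 CPM in B6) and 3 did not pass. Adgre1 and Ccr1 were at or under 1.11 CPM in every library. The part of myeloid cells in the differences of these members was not tested. The 8 dendritic markers with values summed to 228 to 282 CPM in CD103Tg and 159 to 199 CPM in B6, and most of this was Bst2 and Cst3. Among 6 dendritic markers tested, 4 rose (Bst2, Cst3, Xcr1 and Siglech), 0 fell and 2 did not pass. The B cell sum was 383 to 548 CPM in CD103Tg and 794 to 886 CPM in B6 and was mostly Ighm. Its direction is that of Ighm and not of most B cell markers. Among 5 B cell markers tested, 3 rose (Igkc, Cd79a and Ebf1), 1 fell (Ighm) and 1 did not pass. Igkc averaged 35.9 CPM in CD103Tg and 1.32 CPM in B6, and Ebf1 1.99 CPM in CD103Tg and 0.0657 CPM in B6. Ms4a1, which was not tested, was at 0.745 to 1.76 CPM in CD103Tg and 0.0975 to 0.383 CPM in B6. The sum of 10 natural killer markers was 346 to 456 CPM in CD103Tg and 178 to 209 CPM in B6, mostly Eomes, which CD8 T cells also express. Of the 8 tested, 5 rose (Eomes, Gzma, Klrb1c, Klra8 and Tyrobp), Klra3 fell and 2 did not pass. Gzma averaged 27.7 CPM in CD103Tg and 3.84 CPM in B6, Klrb1c 6.97 CPM in CD103Tg and 3.55 CPM in B6, Klra8 2.78 CPM in CD103Tg and 0.885 CPM in B6, and Tyrobp 4.56 CPM in CD103Tg and 2.13 CPM in B6. Ncr1, a defining natural killer marker, was at or under 0.66 CPM in every library. The part of such cells in the differences of the members was not tested.

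**Figure D3:**
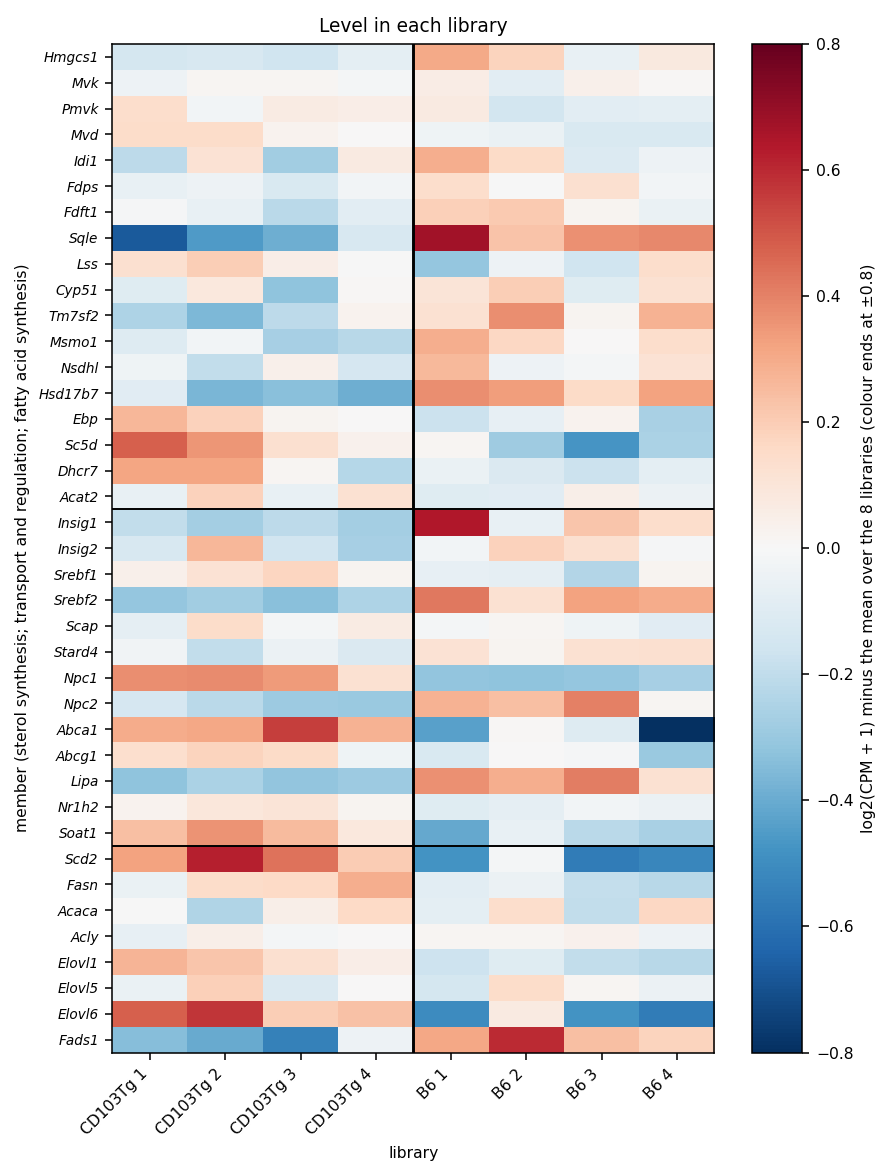
Level of each of the 39 members in each library, as log2(CPM + 1) minus the mean of that member over the 8 libraries, with CD103Tg libraries left of the black line and B6 libraries right of it; horizontal lines part the 3 lists. Srebf2, Lipa, Npc1, Hsd17b7 and Sqle keep 1 colour on each side of the line, and the B6 replicate 2 column is closest to the CD103Tg columns for Scd2 and Elovl6.

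In fatty acid synthesis, 4 of the 5 calls were upward, and whether this differs from all genes (17.4% called higher and 13.8% lower) was not tested. Among the 8 genes analysed, 4 rose (Scd2, Fasn, Elovl1 and Elovl6), 1 fell (Fads1) and 3 did not pass, a share called of 62.5% against 31.2% of all genes. The median log2 fold change was 0.14. The count called was 5 without any one of the 8 libraries.

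The first enzymes, which supply the precursors, showed little difference. Acly, which makes cytosolic acetyl-CoA from citrate, was at 415 ± 13.1 CPM in CD103Tg and 419 ± 9.09 CPM in B6, and Acaca, which carboxylates it to malonyl-CoA, at 16.6 ± 1.98 CPM in CD103Tg and 16.8 ± 2.13 CPM in B6 (SD, n = 4 each). Their log2 fold changes were -0.01 ± 0.05 and -0.02 ± 0.11 (SE). Fasn, the synthase that assembles palmitate, was at 147, 169, 171 and 187 CPM in CD103Tg, against 144, 148, 134 and 131 CPM in B6. CD103Tg replicate 1 lay just below B6 replicate 2, so the groups overlapped, and the log2 fold change was 0.27 ± 0.07 (limma adjusted p = 0.0161). Without both libraries numbered 4 it was 0.19 and did not pass (adjusted p = 0.0653, the highest over the alternatives, which began at 0.00389).

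The enzymes that lengthen and desaturate fatty acids held the larger differences. Scd2 (chromosome 19, 44293674 to 44306864), a stearoyl-CoA desaturase that makes monounsaturated fatty acids, was at 152, 187, 164 and 140 CPM in CD103Tg, against 86.7, 120, 82 and 84.2 CPM in B6. No libraries overlapped, the ratio of means was 1.72, and the log2 fold change was 0.79 ± 0.12 (limma adjusted p = 0.000533). Elovl6, which elongates palmitate, was at 21.2, 22.6, 17.2 and 17.7 CPM in CD103Tg, against 10.2, 15.7, 10.4 and 9.78 CPM in B6 (0.74 ± 0.14, adjusted p = 0.00265). B6 replicate 2 was the highest B6 library for both. Elovl1, which elongates saturated very long chains, was at 114, 110, 103 and 98 CPM in CD103Tg, against 84, 88.2, 82.2 and 80.8 CPM in B6 (0.34 ± 0.06, adjusted p = 0.00138). Elovl5, which elongates polyunsaturated chains, was at 344 ± 32.6 CPM in CD103Tg and 341 ± 28.7 CPM in B6 and did not pass. Fads1, a desaturase of the polyunsaturated pathway, fell, at 7.36, 7.01, 6.29 and 9.3 CPM in CD103Tg, against 12.1, 15, 11.5 and 11 CPM in B6 (-0.66 ± 0.13, adjusted p = 0.00258). The desaturases Scd2 and Fads1 therefore moved in opposite directions, without overlap in either.

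Levels were also set per kilobase of merged exon, which allows for gene length but joins all annotated transcripts, so ranks depend on the annotation. On this scale Elovl5 (97.8 CPM per kb in CD103Tg and 96.8 in B6) and Acly (78.6 and 79.3) were the most abundant members in both groups. Sqle (0.477 CPM per kb in CD103Tg and 0.979 in B6) and Tm7sf2 (0.432 and 0.639) were the least abundant. The sterol synthesis gene with the highest level was Ebp, at 31.2 CPM per kb in CD103Tg and 26.4 in B6. Exons of 13 of the 39 members share bases with another annotated gene. The library kit is not one that marks strand, so reads there cannot be told apart by strand. Among members that passed, Hmgcs1 shared 12.1% of its exon length with an antisense gene, Tm7sf2 12.1% with Vps51, Npc1 5.3% with antisense genes, Elovl1 1.9% with Cdc20, Scd2 1.1% with Mir5114 and Elovl6 0.5% with an antisense gene. Cdc20, antisense to Elovl1, itself rose, with a log2 fold change of 0.905 ± 0.122 (SE, limma adjusted p = 0.000214).

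Genes of the same pathways outside the member list were counted in the same fit. Of 20 other sterol genes tested, 6 rose, 3 fell and 11 did not pass, a share called of 45% against 31.2% of all genes. Rxra, the retinoid X receptor gene whose product pairs with liver X receptors, was at 25.4, 25.4, 25.5 and 23.7 CPM in CD103Tg, against 17.8, 13.3, 15.8 and 13.9 CPM in B6 (log2 fold change 0.69 ± 0.09, limma adjusted p = 0.000222). Osbpl9, an oxysterol-binding protein gene, fell by 0.33 ± 0.05 and Aacs, which activates acetoacetate for sterol synthesis, rose by 0.34 ± 0.06 on the log2 scale.

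Of 20 other fatty acid synthesis genes tested, 6 rose, 2 fell and 12 did not pass, a share called of 40% against 31.2% of all genes. Agpat3, an acyltransferase of phospholipid synthesis, rose by 0.33 ± 0.05, Acsl5, an acyl-CoA synthetase, by 0.30 ± 0.06 and Mid1ip1, which promotes acetyl-CoA carboxylase polymers, by 0.45 ± 0.09 on the log2 scale. Acsl3, another acyl-CoA synthetase, was at 0.874, 1.56, 1.1 and 2.52 CPM in CD103Tg, against 4.25, 2.89, 5.11 and 4.36 CPM in B6 (-1.06 ± 0.21, limma adjusted p = 0.00259). Of 18 genes of fatty acid oxidation, the opposite process, 6 rose, 0 fell and 12 did not pass, a share called of 33.3%, near that of all genes, and the count was 3 without CD103Tg replicate 2. Etfb, a chain of the electron transfer flavoprotein, was at 78.9, 84.5, 78.8 and 73.3 CPM in CD103Tg, against 53.3, 52, 54.1 and 48.7 CPM in B6 (0.59 ± 0.06, limma adjusted p = 3.09e-05). Cpt2, of the carnitine shuttle, rose by 0.32 ± 0.07 and the dehydrogenase gene Acadl by 0.33 ± 0.07. Slc25a20, the carnitine carrier gene, rose by 0.27 ± 0.07, and its call was lost without CD103Tg replicate 1 or 2 (adjusted p up to 0.0777).

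**Figure D4:**
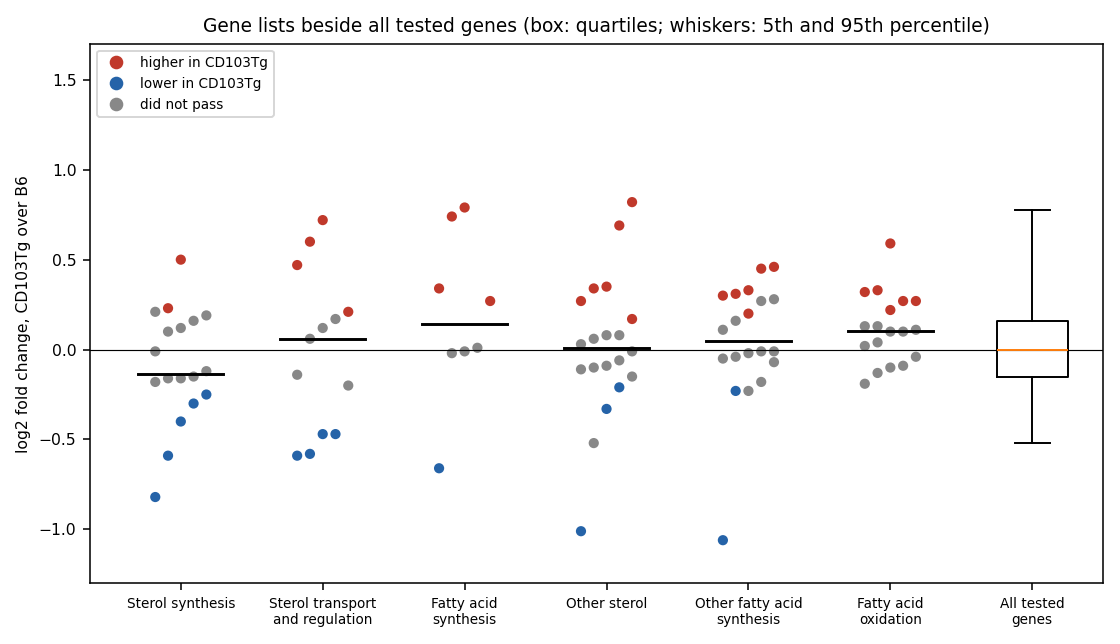
Log2 fold changes, CD103Tg over B6, of the tested genes of the 3 member lists and of 3 lists of other genes of these pathways, with a black line at each median, beside a box of all 11503 tested genes with quartiles and whiskers at the 5th and 95th percentile. The quartiles of all tested genes lie at -0.16 and 0.16, and members of each list lie on both sides of 0.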

How the data were processed

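RNA-seq libraries of sorted cells, 4 CD103Tg and 4 B6, were grouped by their titles. Per the labels' protocols, they were made with SMART-Seq v4, which has no molecular identifiers, and Nextera XT. Tools listed in the submitters' processing notes are STAR 2.7.0f, RSEM, cutadapt 1.18 and bcl2fastq 2.17, and the builds are mm10 and GRCm38. The annotation and the gene filter are not given in the sources used here; all 13245 gene IDs matched GENCODE M21. The authors deposited 1 table of normalized signal per gene, whose scale is CPM with TMM factors. Estimated reads were recovered from the steps of these values (every value was a whole number of hundredths of a read to within 0.05 of one). They served for depth, 50187279 to 56371476 per library, and for an alternative fit.

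The main test used limma 3.58.1 (R 4.3.3) on log2(CPM + 1) for the 11503 genes averaging 1 CPM or more, with a trended prior and no covariate besides genotype. Tests were two-sided, and p-values were adjusted by Benjamini-Hochberg over all of these genes. The pseudocount of 1 understates changes of low genes. The fit was also run on simulated reads, drawn independently for each gene and library. That simulation held no effects shared between genes or libraries, so it does not check the calls made here. A positive log2 fold change is one with the higher level in CD103Tg. Alternatives changed the pseudocount, filter, scaling, weights and covariates, used voom, and left out libraries. Leaving out both libraries numbered 4 or 2 was chosen after seeing the data, as was the naming of Cd247 and of the promoter letters. The members and lists were chosen with earlier results of these data known. All members are named, with values in every library for those that passed and, of the other lists, up to 4 that passed; some items are not reported here. A planned likeness of members to Srebf2 across libraries is not given, since the libraries fall into 2 groups of 4. Merged exon lengths are from GENCODE M21, promoters from RefSeq (GRCm38.p6). Figures were drawn with matplotlib 3.10.9.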

Additional observations from a re-analysis of the deposited data

Results flagged for a closer look

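In 7 of 78 groups of 4 libraries (39 members, each in CD103Tg and B6), 1 library stood far from the other 3, its gap to the nearest divided by the range of the group passing 0.829. Chance flags about 1 in 20 such groups. Hsd17b7 in CD103Tg had a ratio of 0.836, with replicate 1 at 9.23 CPM and the next at 7.61 CPM. Npc1 had such a library in both groups, with a ratio of 0.833 in CD103Tg, where replicate 4 stood low at 44 CPM, and 0.896 in B6, where replicate 4 stood high at 33.4 CPM. The other 3 B6 libraries lay between 32.1 and 32.3 CPM, so that ratio rests on a very narrow range. Abca1 in CD103Tg had 0.894, with replicate 3 high at 44.6 CPM. B6 replicate 2 was the library set apart in Scd2 (0.877, at 120 CPM), Elovl6 (0.896, at 15.7 CPM) and Stard4 (0.879, at 16.1 CPM). It was high in Scd2 and Elovl6, on the side of CD103Tg, and low in Stard4. Leaving that library out kept the calls of Scd2 and Elovl6 and left Stard4 uncalled.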

How the results depend on the processing

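All 22 alternatives were run, and no call of a named gene turned round in any of them. Of the 20 members that passed, 14 kept their call in each alternative in which they were tested; Hmgcs1, Tm7sf2, Ebp, Sc5d, Abcg1 and Fasn did not. Of the 19 others, 13 passed in none. Leaving out 1 library at a time gave 16 to 22 members called, 4 to 8 of sterol synthesis, 7 to 9 of transport and regulation and 5 of fatty acid synthesis, 7 to 10 of other sterol genes, 6 to 8 of other fatty acid synthesis genes, 3 to 6 of fatty acid oxidation and 2771 to 3583 of all genes. Without both libraries numbered 2, which leaves 3 a group, the counts were 14 members, 3 sterol synthesis, 5 other fatty acid synthesis and 2 fatty acid oxidation genes and 2179 of all genes. The members Hmgcs1, Tm7sf2, Ebp, Sc5d (limma adjusted p = 0.0596), Abcg1 and Fasn (0.0502) then lost their calls, as did Cpt2 (0.051) and Slc25a20. A mean of at least 5 CPM removed Sqle and Tm7sf2 from the test. Voom called 19 members and 3531 genes. No scaling moved the median log2 fold change of all genes beyond -0.039. Deviations of same-numbered libraries from their group means correlated at 0.22, 0.35, -0.08 and 0.12 for numbers 1 to 4. Those of differently numbered libraries correlated at -0.21 to 0.24. The main fit did not pair libraries by number, and whether the numbers mark pairs was not tested. With the replicate block 19 members and 3682 genes were called, and Tm7sf2 was the one named gene whose call changed. At 78 reads in its lowest library, Tm7sf2 was the least covered member.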

Other observations

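In part of the members, libraries with the same number were each the highest of their group. CD103Tg replicate 2 and B6 replicate 2 were each the highest of their group in 8 of 39 members (Cyp51, Insig2, Scap, Abcg1, Soat1, Scd2, Elovl5 and Elovl6), and the replicates numbered 1 in 5 (Pmvk, Mvd, Hsd17b7, Sc5d and Insig1). Numbers 3 and 4 did so in 1 member each. This count was not made over all genes or set against chance, so it is a description only and not particular to the members. The myeloid marker sum was also highest in replicate 2 of each group, at 95.27 CPM in CD103Tg and 67.08 CPM in B6. Hemoglobin and Alas2 transcripts summed to 184.72 CPM in CD103Tg replicate 4 and 55.97 CPM in B6 replicate 4, against at most 9.66 CPM in every other library.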
